A study of Mus musculus with 17 samples.

Results

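The Hox genes of the diaphragm are taken here as the rows of the expression table whose symbol names a gene of the Hoxa, Hoxb, Hoxc or Hoxd cluster, which gave 39 of 47643 listed genes. Of these 39 genes, 12 reached at least 1 TPM in every one of 17 mice, 8 did so in some mice, 11 were detected only below 1 TPM and 8 were listed at 0 in all mice. TPM stands for transcripts per 1000000, the reads of a gene divided by its length and scaled to a common sum, so levels can be compared between genes. RNA-seq was done on part of the muscle of the diaphragm, the chief muscle of inspiration, dissected free of tendons, of male C57BL/6J mice aged 4 months. The groups were Control (mock-injected, n = 5), Control + rFibcd1 (n = 5), LLC (mock-injected, n = 3) and LLC + rFibcd1 (n = 4). Both tumor groups carried subcutaneous tumors of Lewis lung carcinoma, a transplantable mouse tumor line, and rFibcd1 is a recombinant protein made from part of Fibcd1, a myokine, that was given into the peritoneal cavity near the end of tumor growth. The comparisons ask whether the tumor alters transcripts of the muscle and whether rFibcd1 alters them in mice with or without a tumor.

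Hox genes encode homeodomain transcription factors that give cells of the embryo their position along the head-to-tail axis. Within each cluster the genes lie in the order in which they act along the body, and genes that hold the same place in different clusters form a paralog group, numbered 1 at the anterior end to 13 at the posterior end. Adult muscle and connective tissue are known to keep part of the Hox pattern of the body level from which they came, and the muscle precursors and the nerve of the diaphragm come from the neck. Hox proteins bind DNA together with TALE proteins of the Pbx, Meis and Pknox families, while Polycomb and Trithorax complexes keep Hox clusters silent or active. On mouse build GRCm38 the Hoxa cluster lies on chromosome 6 with 11 genes, and the Hoxb cluster spans 96194316 to 96368256 of chromosome 11 with 10, the Hoxc cluster 102921103 to 103036852 of chromosome 15 with 9, and the Hoxd cluster 74668310 to 74765142 of chromosome 2 with 9.

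Depth recovered from the low values was 50.8 to 54.6 per mouse in units of 1000000 reads, and 11557 to 13413 genes per mouse reached 1 TPM. Myofiber markers summed to between 45570 and 57260 TPM, so the defining transcripts of the labelled tissue were present. The Control + rFibcd1 replicate 2 library held 2981 TPM of 4 hepatocyte markers, against 0.490 to 304.6 TPM in the other 16 mice. The 39 Hox genes together held only 0.00698% to 0.00882% of all TPM. In bulk tissue, fewer cells of a type and less RNA per cell cannot be told apart.

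Most Hox RNA of the diaphragm came from the middle of the clusters. Averaged over the 4 group means, the Hox genes summed to 78.7 TPM, of which paralog groups 4 to 7 held 82.0%, groups 1 to 3 10.2%, groups 8 and 9 7.54% and groups 10 to 13 0.304%. Group 5 was the largest, with 28.5% of Hox TPM, followed by group 4 with 24.9% and group 6 with 20.0%. All 4 genes of group 4 and 9 of the 12 genes of groups 4 to 7 were at 1 TPM or more in every mouse. The Hoxc and Hoxa clusters carried 38.1% and 37.2% of Hox TPM, the Hoxb cluster 16.6% and the Hoxd cluster 8.22%. The last gene at 1 TPM in all mice was Hoxa7 in the Hoxa cluster, Hoxb4 in Hoxb, Hoxc6 in Hoxc and Hoxd8 in Hoxd, but at 0.5 TPM it was Hoxa7, Hoxb7, Hoxc6 and Hoxd9, so the end points of Hoxb and Hoxd depend on the level chosen.

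**Figure D1:**
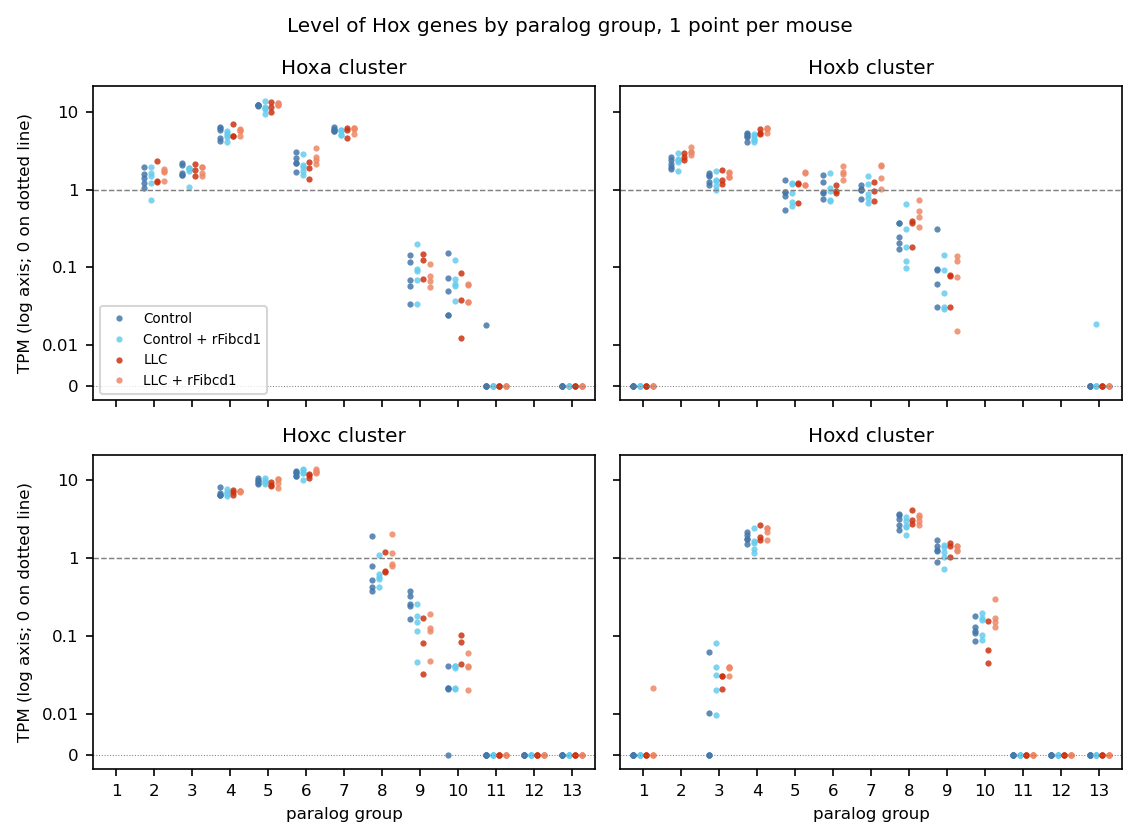
Level of the Hox genes reported here (TPM, log axis, values of 0 drawn on the dotted line) against paralog group, 1 panel per cluster and 1 point per mouse, colored by group. The dashed line is 1 TPM. Levels peak between groups 4 and 7 in the Hoxa, Hoxb and Hoxc clusters and at group 8 in the Hoxd cluster, and all genes of groups 11 to 13 lie at 0 apart from single points of Hoxa11 and Hoxb13.

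To show the DNA before a strongly transcribed, a tumor-called and a silent Hox gene, the 250 bases upstream of the start are printed for Hoxa5, Hoxb4 and Hoxa13, whose mean levels were 11.9, 5.20 and 0 TPM. They were read 5′ to 3′ on the strand of the gene from RefSeq (GRCm38.p6), and capitals mark CG dinucleotides.
Hoxa5 at chr6:52204588-52204837, strand -: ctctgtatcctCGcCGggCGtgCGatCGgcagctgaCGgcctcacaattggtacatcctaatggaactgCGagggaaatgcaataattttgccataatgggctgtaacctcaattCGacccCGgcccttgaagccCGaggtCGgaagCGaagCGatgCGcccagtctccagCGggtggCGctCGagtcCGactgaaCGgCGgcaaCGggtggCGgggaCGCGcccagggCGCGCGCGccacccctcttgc
Hoxb4 at chr11:96318017-96318266, strand +: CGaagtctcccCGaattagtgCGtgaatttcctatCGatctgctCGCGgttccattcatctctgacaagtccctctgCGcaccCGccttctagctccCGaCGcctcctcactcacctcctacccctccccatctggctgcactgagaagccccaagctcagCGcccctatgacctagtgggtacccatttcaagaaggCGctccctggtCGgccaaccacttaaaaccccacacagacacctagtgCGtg
Hoxa13 at chr6:52260881-52261130, strand -: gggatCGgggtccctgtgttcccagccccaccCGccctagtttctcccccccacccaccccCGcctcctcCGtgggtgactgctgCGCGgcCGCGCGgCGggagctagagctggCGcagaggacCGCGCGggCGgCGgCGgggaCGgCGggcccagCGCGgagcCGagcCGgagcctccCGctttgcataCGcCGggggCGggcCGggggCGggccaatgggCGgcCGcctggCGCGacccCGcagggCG
The 3 windows hold 28, 14 and 35 CG dinucleotides and 63.6%, 58.0% and 80.0% G and C, so among these 3 the window of the gene listed at 0 was the richest in CG. The other windows of Hox genes listed at 0 held 7 (Hoxb1), 2 and 20 (Hoxd11), 10 (Hoxd12) and 31 (Hoxd13). Promoters of 22 of the 39 Hox genes were present in that set, 24 windows in all. Their median was 12.5 CG dinucleotides, against 6 over all 32851 promoters. The median was 11 in 8 windows of Hox genes at 1 TPM in all mice and 15 in 6 windows of Hox genes listed at 0. Some of these windows overlap annotated exons, among them Hoxc4 by 250 bases, Hoxa7 by 78, Hoxa6 by 50 and Hoxb1 by 6. The medians therefore mix exon with upstream sequence. The motif TGATTNAT, which Hox and Pbx proteins are known to bind as a pair, was found on either strand in 2 of the 24 windows (Hoxa2 and Hoxd11), or 8.33%, against 2.83% of all promoters. TATAAA, the TATA box, was found in 4 (Hoxa10, Hoxb8, Hoxd4 and Hoxd13), or 16.7%, against 12.4%, and neither motif can overlap the other within these windows because no window held both.

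Hoxc6 and Hoxa5 were the most abundant Hox transcripts. Hoxc6 was at 13.2, 11.4, 11.4, 12.8 and 12.3 TPM in the Control mice, 10.1, 12.3, 13.7, 13.8 and 12.5 with rFibcd1, 11.8, 11.9 and 10.8 in the LLC mice and 13.004, 12.3, 14.003 and 12.9 with LLC and rFibcd1. Hoxc6 (chromosome 15, 102998257 to 103011881) is known for patterning of the thoracic body wall. Hoxa5 was at 11.997, 12.1, 12.3, 12.2 and 12.2 TPM in the Control mice, 13.7, 10.96, 11.03, 9.28 and 11.7 with rFibcd1, 13.2, 11.3 and 9.93 in the LLC mice and 12.2, 12.04, 12.9 and 12.9 with LLC and rFibcd1. Hoxa5 (chromosome 6, 52201754 to 52204587), which is required for the airways and for the phrenic motor neurons that supply the diaphragm, was nearly level over the 5 Control mice (SD 0.109 TPM) and spread more widely in the other groups. The difference of 0.429 TPM between Hoxc6 and Hoxa5 was below their combined SD of 1.53 TPM, and Hoxc6 was the higher one in 12 of 17 mice.

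Hoxc5, Hoxc4, Hoxa7, Hoxa4 and Hoxb4 followed. Hoxc5 was at 9.07, 10.9, 9.71, 9.30 and 10.1 TPM in the Control mice, 8.85, 9.64, 9.63, 10.2 and 10.8 with rFibcd1, 9.51, 8.74 and 8.41 in the LLC mice and 8.004, 9.16, 10.3 and 10.4 with LLC and rFibcd1. Hoxc5 (chromosome 15, 102967443 to 103017429), which acts with Hoxa5 in phrenic motor neurons, was above the next gene, Hoxc4, in all 17 mice. Hoxc4 was at 6.46, 8.31, 6.86, 6.53 and 6.51 TPM in the Control mice, 6.30, 6.76, 6.94, 7.01 and 7.73 with rFibcd1, 7.02, 7.48 and 6.45 in the LLC mice and 7.26, 7.40, 7.18 and 7.34 with LLC and rFibcd1. Hoxc4 (chromosome 15, 103018934 to 103036852) was the steadiest Hox gene, with an SD within groups of 7.97% of its mean. Hoxa7 was at 5.92, 5.76, 6.27, 5.72 and 5.599 TPM in the Control mice, 5.75, 5.00, 4.98, 5.72 and 5.83 with rFibcd1, 5.87, 6.13 and 4.58 in the LLC mice and 6.10, 5.94, 6.23 and 5.12 with LLC and rFibcd1. Hoxa7 (chromosome 6, 52214491 to 52221854), a gene of thoracic patterning, was below Hoxc4 in all 17 mice. Hoxa4 was at 5.82, 6.34, 4.64, 6.10 and 4.26 TPM in the Control mice, 4.05, 5.39, 4.95, 5.64 and 4.74 with rFibcd1, 7.01, 4.85 and 4.85 in the LLC mice and 5.77, 5.98, 4.87 and 5.68 with LLC and rFibcd1. Hoxa4 (chromosome 6, 52189671 to 52191753) takes part in shaping the neck vertebrae. In the annotation Hoxa7 shares 586 of its 2876 exonic bases and Hoxa4 255 of its 1594 with antisense transcripts (Hoxaas3 and Gm29430), and Hoxc5 shares 166 of its 3089 with Hoxc10, so the levels of these genes are uncertain where reads could be split. Hoxa7, Hoxa4 and Hoxb4 averaged 5.67, 5.38 and 5.20 TPM, and the gaps between these neighbors were below their combined SDs of 0.957 and 0.935 TPM.

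Hoxd8, Hoxb2 and Hoxa6 closed the 10 highest genes. Hoxd8 was at 2.65, 3.56, 3.21, 2.30 and 3.65 TPM in the Control mice, 2.97, 2.53, 2.00, 2.57 and 3.42 with rFibcd1, 4.22, 2.73 and 3.07 in the LLC mice and 2.64, 3.59, 3.00 and 3.37 with LLC and rFibcd1. Hoxd8 (chromosome 2, 74704615 to 74707933) led its cluster and was below Hoxb4 in all 17 mice. Hoxa6 was at 1.68, 2.18, 2.20, 3.07 and 2.51 TPM in the Control mice, 2.89, 1.98, 2.06, 1.54 and 1.71 with rFibcd1, 1.88, 2.24 and 1.37 in the LLC mice and 2.14, 2.42, 3.37 and 2.60 with LLC and rFibcd1. Hoxa6 (chromosome 6, 52206288 to 52208722) had the fewest exonic bases of these 10 genes (874), and 29 to 76 reads stood behind its values. From Hoxd8 down to Hoxc8, each of the 11 gaps between neighbors in the order was below the combined SD. In that stretch lay Hoxd4 (mean 1.93 TPM), Hoxa3 (1.76), Hoxa2 (1.53), Hoxb3 (1.43), Hoxd9 (1.30), Hoxb6 (1.19), Hoxb7 (1.15), Hoxb5 (1.06) and Hoxc8 (0.883). Hoxd4 and Hoxa3 were at 1 TPM or more in all mice, Hoxa2 and Hoxb3 in 16 of 17, Hoxd9 in 15, Hoxb7 in 10, Hoxb6 and Hoxb5 in 9 and Hoxc8 in 5. Hoxb3 shares 2250 of its 4251 exonic bases with the antisense transcript Hoxb3os. Hoxa3 shares 503 of its 6014 with Hoxaas2, among other transcripts of the opposite strand, so the levels of Hoxb3 and Hoxa3 are uncertain. Hoxc8, which patterns the lower thoracic region, varied most among genes near 1 TPM, from 0.386 to 2.07 TPM, with an SD within groups of 56.3% of its mean.

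Most posterior genes were below 1 TPM. Hoxb8 (0.343 TPM), Hoxc9 (0.160), Hoxd10 (0.137), Hoxa9 (0.0937), Hoxb9 (0.0844) and Hoxa10 (0.0573) were above 0 in every mouse but never reached 1 TPM. Hoxc10 was above 0 in 16 mice, with at most 5 reads, and Hoxd3, an anterior gene, in 14 mice at up to 0.0825 TPM. Hoxd3 shares 2225 of its 4191 exonic bases with Gm28230, a gene model on the same strand, so its low level is uncertain, as is that of Hoxd4, which shares 1154 of 2948 with it. Hoxa11, Hoxb13 and Hoxd1 were each represented by 1 read in 1 mouse. The genes listed at 0 in all mice were Hoxa13, Hoxb1, Hoxc11, Hoxc12, Hoxc13, Hoxd11, Hoxd12 and Hoxd13. A count of 0 allows up to 3 reads, which is 0.122 TPM for the shortest of them, Hoxc12, and 0.0297 TPM for Hoxd11, the longest, in the mouse with the lowest depth per TPM. These limits cover counting error only. Posterior genes of groups 11 to 13 are known for building the limb ends, the lower back and the urogenital tract.

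**Figure D2:**
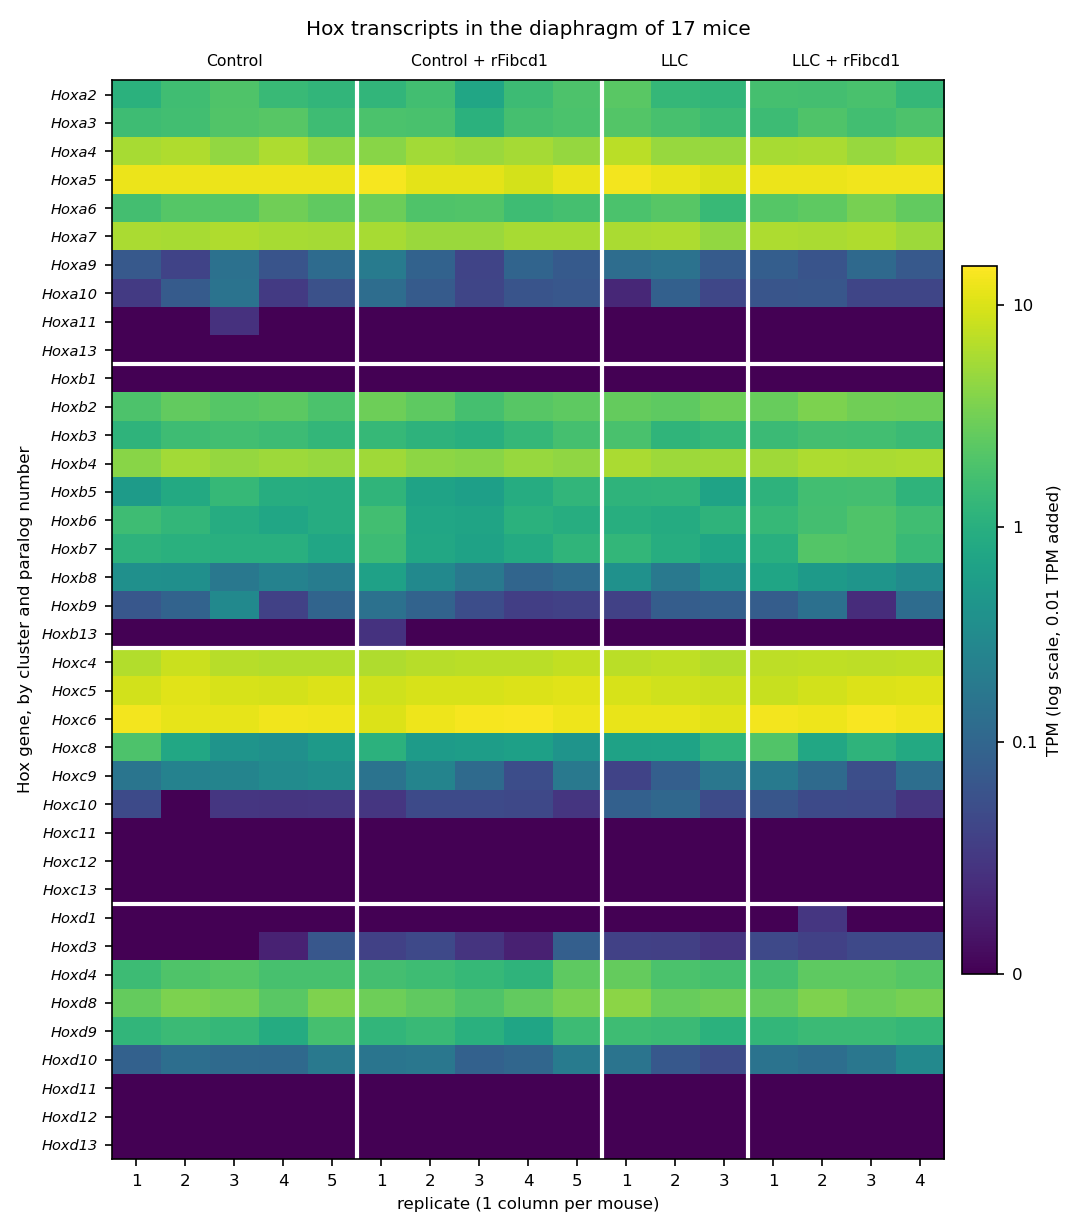
Level of the Hox genes reported here (rows, by cluster and paralog number) in each of the 17 mice (columns, by group), as TPM on a logarithmic color scale with 0.01 TPM added. The brightest rows are Hoxa4, Hoxa5, Hoxa7, Hoxb4 and Hoxc4 to Hoxc6, and the 8 genes listed at 0 form dark rows.

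The first comparison concerned the tumor. Hoxb4 and Hoxb2, both of the anterior part of the Hoxb cluster, were higher in the 7 tumor-bearing mice, and the other 17 Hox genes tested did not pass. Hoxb4 was at 4.11, 5.39, 4.74, 5.19 and 4.82 TPM in the Control mice, 5.24, 4.31, 4.07, 4.80 and 4.51 with rFibcd1, 5.93, 5.19 and 5.27 in the LLC mice and 5.32, 6.14, 5.99 and 6.11 with LLC and rFibcd1. All 7 tumor-bearing mice were at 5.19 TPM or more, and 3 of the 10 tumor-free mice reached into their range. Hoxb4 (chromosome 11, 96318267 to 96321638), best known for the self-renewal of blood stem cells, averaged 5.71 TPM with a tumor and 4.72 without, which was 20.9% higher. On the log2(TPM + 1) scale, which understates changes of low genes, it rose by 0.23 ± 0.06 (SE, limma, 7 against 10 mice, adjusted p = 0.00572). Hoxb2 was at 1.93, 2.58, 2.15, 2.38 and 1.86 TPM in the Control mice, 2.97, 2.46, 1.75, 2.25 and 2.41 with rFibcd1, 2.63, 2.40 and 2.94 in the LLC mice and 2.75, 3.51, 3.07 and 3.01 with LLC and rFibcd1. Tumor-bearing mice had the higher Hoxb2 values, but 4 of the 10 tumor-free mice overlapped with them. Hoxb2 (chromosome 11, 96350525 to 96354012), which patterns the hindbrain, averaged 2.90 TPM with a tumor and 2.28 without, 27.6% higher, and rose by 0.26 ± 0.07 (SE, limma, adjusted p = 0.0128).

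These 2 called genes stand against 44.8% of the 13305 genes tested that passed in the same comparison, and 38.8% of the 13305 passed with higher values. The 19 Hox genes are those with at least 1 TPM in at least 3 mice, and their median difference was 0.089 (log2), against 0.13 over all genes. At an unadjusted p under 0.05, 4 Hox genes differed, all higher (Hoxb4, Hoxb2, Hoxb5 and Hoxb6), against 53.5% of all genes. The calls of Hoxb4 and Hoxb2 depended on scaling. Relative to the median gene they were higher by 0.10 and 0.13, and with median-ratio scaling their adjusted p were 0.118 and 0.0505, with Hoxc5 called lower in their place, against 36.2% of all genes called in that fit. With quantile normalization they were 0.925 and 0.748 (limma), and Hoxa7 and Hoxc5 were called lower, against 38.7% of all genes called.

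Markers of other cells moved with the tumor as well. In tumor-bearing mice 5 of 5 neutrophil, 5 of 5 B cell, 5 of 5 T cell and 5 of 7 endothelial markers were called higher and 6 of 8 myofiber markers lower. Beside these and the following counts, 38.8% of all genes were called higher and 5.98% lower. Markers of macrophages (3 of 5), tenocytes (2 of 4), Schwann cells (2 of 5) and fibroblasts (2 of 9) were also called higher, as was 1 each of the mesothelial, smooth muscle and adipocyte markers. With median-ratio scaling and with quantile normalization 0 tenocyte, Schwann cell and mesothelial markers were called, and 1 smooth muscle marker was called lower and 0 higher. With median-ratio scaling and with quantile normalization 1 of 7 endothelial markers was called higher, with quantile normalization 3 of 8 myofiber markers were called lower, and without LLC replicate 1 or LLC replicate 3 0 B cell markers were called. Without LLC replicate 3, 2 of 5 T cell markers were called. The summed neutrophil markers ranged from 44.9 to 205.7 TPM with a tumor and from 1.84 to 78.2 without, and the summed endothelial markers from 226.7 to 299.4 and from 196.9 to 252.6. Their part in the levels of Hoxb4 and Hoxb2 was not tested. Mitochondrially encoded transcripts held 41.3% to 46.5% of TPM in the tumor-bearing mice, 41.3% to 44.3% in LLC alone, and 45.4% to 50.4% in the tumor-free mice. When TPM were rescaled without these transcripts, Hoxb4 and Hoxb2 were higher by 0.17 and 0.23 (log2) and still passed (limma, adjusted p = 0.0370 and 0.0358). Hoxb2 shares 953 of its 3488 exonic bases with the antisense transcript Hoxb3os, and without a stated strand in the counting their reads cannot be told apart, whereas Hoxb4 overlaps no other annotated exon.

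In LLC against Control, which leaves rFibcd1 aside, no Hox gene passed. Of the 19 tested, 0 had an adjusted p under 0.05 and 0 an unadjusted p under 0.05 (limma), where 35.8% and 48.3% of all genes did. By Dunn's test 0 Hox genes had an unadjusted p under 0.05, against 37.5% of all genes. After adjustment Dunn's test called 0 of all 13305 genes in this and each of the other 3 comparisons of groups, so its adjusted p-values say nothing about the Hox genes. Without LLC replicate 3, 24 of all genes and again 0 Hox genes passed by limma. Groups of 3 and 5 mice did not overlap for 0 of the 19, against 40.2% of all genes. Hoxb2 had the lowest p (0.0804, adjusted p = 0.147, limma), at 2.66 ± 0.273 TPM in the LLC mice (SD, n = 3) against 2.18 ± 0.305 in the Control mice (SD, n = 5), a difference of 0.20 ± 0.11 (log2, SE) that turned to -0.13 under quantile normalization. The summed Hox level was 78.0 ± 2.60 TPM in Control (SD, n = 5) and 77.1 ± 8.07 in LLC (SD, n = 3). The median difference of the Hox genes was 0.013 (log2), while that of all genes was 0.16, and 12 of 19 Hox genes against 73.8% of all genes lay above 0.

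How small a change this comparison could miss is given by the intervals. The 95% intervals of the most abundant genes were -0.26 to 0.10 (log2) for Hoxc6, -0.28 to 0.11 for Hoxa5, -0.30 to 0.05 for Hoxc5 and -0.15 to 0.17 for Hoxc4. The widest interval among the 19 genes was that of Hoxc8, from -0.43 to 0.58, and the lowest bound of any was -0.57, for Hoxa6. The median of the 19 Hox genes lay below that of all genes under these scalings, by 0.15 as deposited, 0.11 with median-ratio scaling and 0.20 with quantile normalization. Median-ratio scaling called Hoxa5 and Hoxc5 lower, which is 2 of 19 against 29.6% of all genes, and quantile normalization called Hoxa5, Hoxa6, Hoxa7, Hoxb6, Hoxb7 and Hoxc5 lower, which is 6 of 19 against 35.2%. At an unadjusted p under 0.05 the counts of Hox genes were 4 and 10, against 43.7% and 47.6% of all genes. The median difference over all genes was then 0.0055 and -0.099.

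Lowering the filter and the pseudocount to 0.1 TPM brought 25 Hox genes into the test. Hoxc9 (chromosome 15, 102976439 to 102985099) then fell by 0.97 ± 0.31 (log2 with 0.1 TPM added, SE, limma, adjusted p = 0.0344) in LLC against Control, where 27.2% of 17594 genes were called. Hoxc9, which patterns the thoracic spinal cord, was at 0.164, 0.245, 0.258, 0.329 and 0.375 TPM in Control and 0.0330, 0.0820 and 0.170 in LLC. It was at 0.153, 0.259, 0.115, 0.0462 and 0.183 TPM in Control + rFibcd1 and 0.193, 0.115, 0.0479 and 0.129 in LLC + rFibcd1. The LLC values overlap with Control in 1 mouse, and they stand on 2, 5 and 10 reads against 10 to 22. Hoxc10, next to it, was the only Hox gene whose LLC and Control mice did not overlap, on 2 to 5 reads against 0 to 2, at 0.0840, 0.104 and 0.0433 TPM in LLC and 0.0417, 0, 0.0219, 0.0210 and 0.0217 in Control, and it was below both filters. In reads the groups met, with 2 reads of Hoxc10 in both LLC replicate 3 and Control replicate 1. Among the 13305 genes tested, 40.2% did not overlap between LLC and Control. Of the 1909 exonic bases of Hoxc10, 166 belong to Hoxc5 as well, so its few reads are uncertain.

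**Figure D3:**
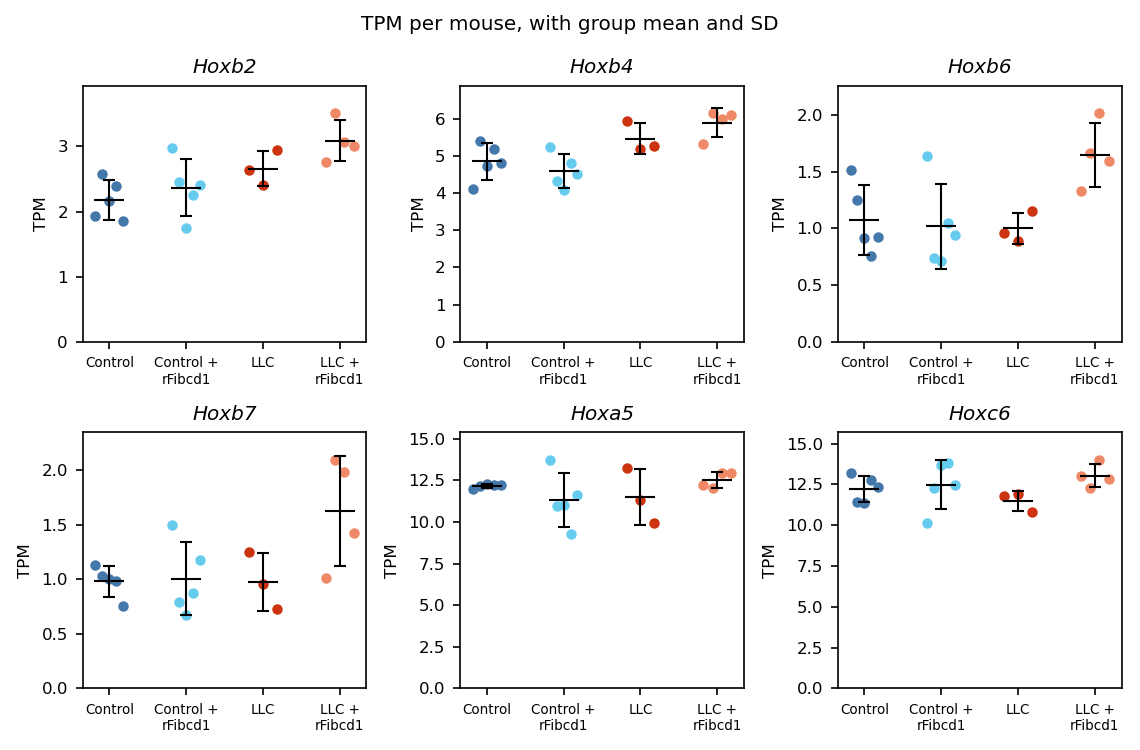
TPM of Hoxb2, Hoxb4, Hoxb6, Hoxb7, Hoxa5 and Hoxc6 in each mouse (points), with the group mean and SD (bars), for the 4 groups. Hoxb4 is at 5.19 TPM or more in all 7 tumor-bearing mice, and Hoxb6 in LLC + rFibcd1 lies above all 3 LLC mice.

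Among tumor-bearing mice, those given rFibcd1 were set against those that were not. No Hox gene passed (0 of 19 by limma, against 0.113% of all genes), while Hoxb6, Hoxb7 and Hoxa6 had an unadjusted p under 0.05, all with higher values in LLC + rFibcd1, against 22.7% of all genes (1 Hox gene by Dunn's test, against 7.17%). That count of 3 was 7 with median-ratio scaling and 12 with quantile normalization, against 21% and 21.8% of all genes, and 0 Hox genes passed after adjustment in either. Hoxb6 was at 1.52, 1.25, 0.914, 0.754 and 0.927 TPM in the Control mice, 1.64, 0.740, 0.714, 1.05 and 0.947 with rFibcd1, 0.959, 0.893 and 1.16 in the LLC mice and 1.33, 1.67, 2.02 and 1.60 with LLC and rFibcd1. The 4 LLC + rFibcd1 mice lay above the 3 LLC mice, and 3 of them above all Control mice too. Hoxb6 (chromosome 11, 96292476 to 96301569), an early gene of the lateral mesoderm, differed by 0.40 ± 0.15 (log2, SE, limma, adjusted p = 0.199). Hoxb7 was at 1.13, 1.03, 1.00, 0.985 and 0.751 TPM in the Control mice, 1.501, 0.788, 0.674, 0.873 and 1.18 with rFibcd1, 1.25, 0.956 and 0.723 in the LLC mice and 1.01, 2.09, 1.99 and 1.42 with LLC and rFibcd1. LLC + rFibcd1 replicate 1 was at the level of the other groups, and the other 3 mice of its group were above the LLC mice. Hoxb7 differed by 0.40 ± 0.16 (log2, SE, limma, adjusted p = 0.204) and Hoxa6 by 0.36 ± 0.16 (log2, SE, limma, adjusted p = 0.215), with Hoxa6 reads of 29 to 49 in LLC and 48 to 76 in LLC + rFibcd1.

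Besides Hoxb6, Hoxc6 did not overlap between these groups, which makes 2 of 19 Hox genes against 14.6% of all genes. Hoxc6 averaged 13.04 ± 0.710 TPM (SD, n = 4) with rFibcd1 and 11.5 ± 0.600 TPM (SD, n = 3) without it, a difference of 0.17 ± 0.09 (log2, SE, limma, adjusted p = 0.243). Over the 19 genes the median difference was 0.076 (log2), with 17 above 0, and over all genes it was -0.11, with 27.0% above 0. These mice are the same LLC animals as in the comparison with Control. Summed endothelial markers ranged from 278.1 to 299.4 TPM in LLC + rFibcd1 and from 226.7 to 271.8 in LLC, with 0 of 7 called and a median difference of 0.17 (log2). Median differences were larger for B cell (-1.90), T cell (-1.30), adipocyte (-1.03), hepatocyte (0.70), mesothelial (-0.60) and macrophage (-0.52) markers, with 0 called in each list. The part of these cells in the Hox values was not tested.

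In the third comparison, rFibcd1 without a tumor, the Hox genes showed no difference past the test. Of 19 Hox genes, 0 passed at an adjusted and 0 at an unadjusted p under 0.05 (limma), against 0% and 4.39% of all genes, and 0 at an unadjusted p under 0.05 by Dunn's test, against 2.42%. Of the 19, 0 separated the groups, against 0.812%. Hoxa5 had the lowest p (0.211, adjusted p = 0.927, limma), averaging 11.3 ± 1.61 TPM with rFibcd1 and 12.2 ± 0.109 TPM without it (SD, n = 5 each), a difference of -0.11 ± 0.08 (log2, SE). The 95% interval of that difference was -0.28 to 0.07, and the intervals of all 19 genes lay within -0.52 to 0.35. The median difference was -0.066 for the Hox genes and -0.060 for all genes.

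**Figure D4:**
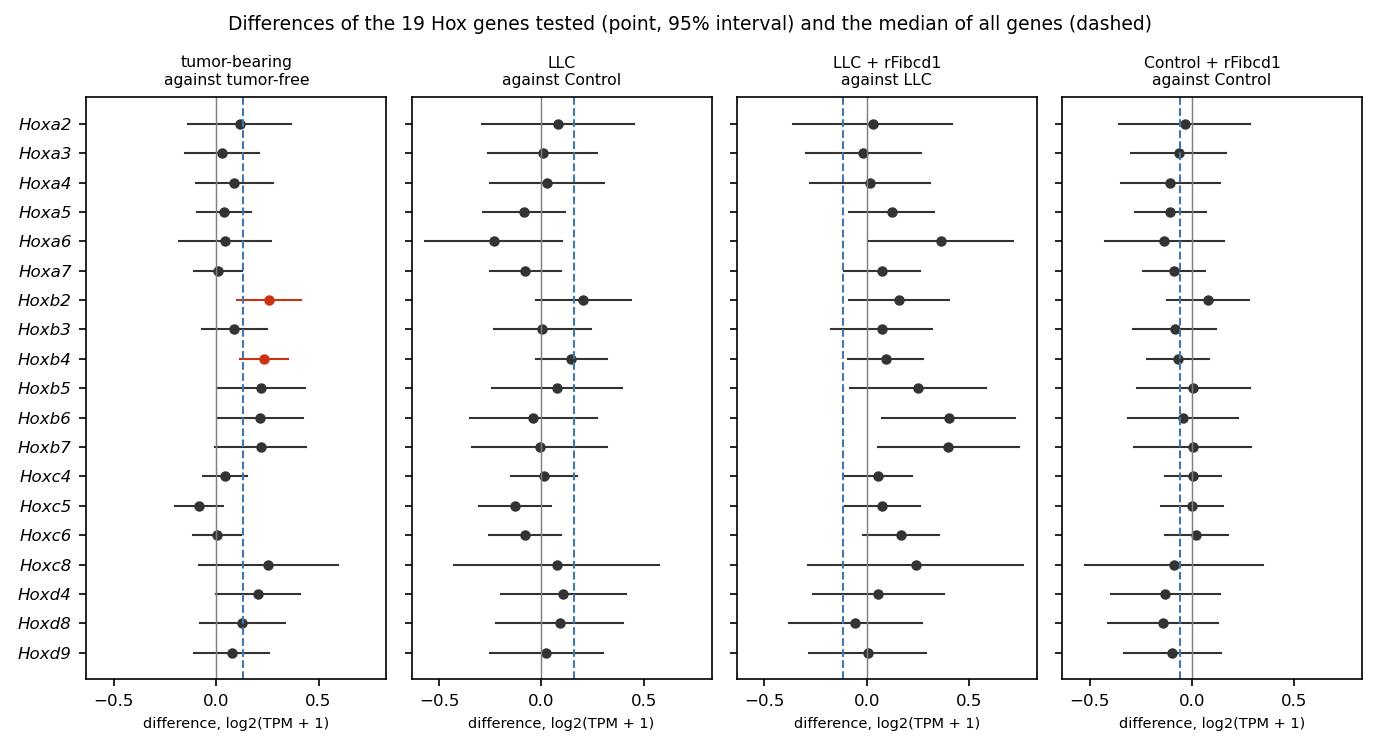
Differences in log2(TPM + 1) of the 19 Hox genes tested (points) with 95% intervals (bars) in 4 comparisons, and the median of all 13305 genes (dashed line). Hoxb2 and Hoxb4, in red, pass the threshold with the tumor, and no Hox gene passes in the other 3 panels.

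Mice with both tumor and rFibcd1 were then set against Control. No Hox gene passed (0 of 19 by limma, against 3.08% of all genes), and 5 had an unadjusted p under 0.05, against 19.9% of all genes (4 Hox genes by Dunn's test, against 12.7%). The 5 were all Hoxb genes with higher values, namely Hoxb2, Hoxb4, Hoxb5, Hoxb6 and Hoxb7. Hoxb2 came closest, at 3.09 ± 0.312 TPM in LLC + rFibcd1 (SD, n = 4) against 2.18 ± 0.305 in Control (SD, n = 5), 41.4% higher, with a difference of 0.36 ± 0.10 (log2, SE, limma, adjusted p = 0.0635). It was the 1 Hox gene of 19 without overlap, against 8.88% of all genes. It passed with median-ratio scaling (adjusted p = 0.0432) and with quantile normalization (adjusted p = 0.0478, limma), where 2.68% and 2.75% of all genes were called. The Hoxb cluster summed to 11.8 ± 0.981 TPM (SD, n = 5) in Control mice and 11.5 ± 2.09 (n = 5) after rFibcd1, and to 12.9 ± 1.10 (n = 3) in LLC mice and 15.8 ± 1.63 (n = 4) after rFibcd1. The sum of the Hoxc cluster was 30.1 ± 1.19, 30.1 ± 2.17, 28.4 ± 1.13 and 31.2 ± 1.27 TPM in the same order. In LLC + rFibcd1 against Control, 5 of 5 neutrophil and 1 of 7 endothelial markers were called higher and 2 of 8 myofiber markers lower. Their part in the Hox values was not tested.

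The interaction asks whether the response of Hox genes to rFibcd1 depends on the tumor. Here 0 of 19 Hox genes passed (limma, 0% of all genes) and 2 had an unadjusted p under 0.05 (Hoxa6 and Hoxb6), against 8.58% of all genes. Hoxa6 had the lowest p (0.0343), with an interaction of 0.50 ± 0.21 (log2, SE, limma, adjusted p = 0.516). Hoxa6 averaged 2.33 ± 0.508 TPM (SD, n = 5) in Control mice and 2.04 ± 0.519 (n = 5) after rFibcd1, and 1.83 ± 0.434 (n = 3) in LLC mice and 2.63 ± 0.528 (n = 4) after rFibcd1. The median interaction was 0.16 over the Hox genes and -0.058 over all genes.

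The partners and regulators of Hox proteins were examined as lists in the same fit, chosen with results of these data known. Their counts in LLC against Control stand beside 29.7% of all genes called higher and 6.02% called lower. Of 8 TALE cofactors tested, 3 rose and 1 fell in LLC against Control, namely Meis3 by 0.65 ± 0.14, Pbx2 by 0.42 ± 0.12 and Meis1 by 0.34 ± 0.11 (log2, SE), while Pknox2 fell by 0.21 ± 0.064 (limma, adjusted p = 0.0111, 0.0202, 0.0281 and 0.0243). Of 33 Polycomb and Trithorax genes, 13 rose and 0 fell as deposited. This became 3 and 2 with median-ratio scaling, 2 and 6 with quantile normalization and 4 and 1 when scaled without mitochondrial genes. Of all genes, 29.6%, 35.2% and 28.4% were called in either direction in these fits. Among the 13 were Phc1, higher by 0.24, Cbx7 by 0.46 and Phf1 by 0.51, which belong to Polycomb complexes, and the Trithorax methyltransferase Kmt2b by 0.30. The median difference was 0.15 for the TALE list and 0.16 for the Polycomb and Trithorax list, beside 0.16 over all genes. Of 18 genes of retinoic acid handling and other upstream regulators tested, 4 rose and 0 fell (median 0.095), namely the retinaldehyde dehydrogenase Aldh1a3 by 0.63, the retinol dehydrogenase Rdh10 by 0.51, the ligand Gdf11 by 0.49 and the receptor Rara by 0.39. Cdx2 and Cdx4, activators of posterior Hox genes, were listed at 0 in all mice.

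Of 25 transcripts beside the Hox genes or related homeobox genes, 2 were tested and 0 passed in LLC against Control. The antisense transcript Hoxb3os differed by -0.03 ± 0.097 (log2, SE, limma, adjusted p = 0.817). Hotair and Hottip, transcribed in the posterior Hoxc and Hoxa clusters, were listed at 0 in all mice. Of 32 other positional and body wall transcription factors tested, 1 rose and 5 fell (median -0.053), with Tbx15 falling by 0.34, Barx2 by 0.49, Shox2 by 0.35 and Emx2 by 0.34. In LLC + rFibcd1 against LLC, 0 genes of each of these 5 lists passed by limma, where 15 of all 13305 genes did. Without LLC replicate 3, 0 genes of each of the 5 lists were called in LLC against Control, and without LLC replicate 1 the TALE, Polycomb and Trithorax, upstream and positional lists had 1, 3, 2 and 4 calls. With median-ratio scaling, the TALE list had 2 higher and 1 lower, the upstream list 2 and 1 and the positional list 0 and 11. With quantile normalization, the TALE list had 1 higher and 2 lower (median -0.18), the upstream list 0 and 1, the transcripts beside the Hox genes 0 and 1 and the positional list 0 and 13. Of all genes, 29.6% were called in either direction with median-ratio scaling (median difference 0.0055) and 35.2% with quantile normalization (median difference -0.099).

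Among the marker lists, LLC against Control called 5 of 5 B cell, 5 of 5 T cell, 5 of 5 neutrophil and 3 of 5 macrophage markers higher. It called 2 of 9 fibroblast, 1 of 4 tenocyte and 1 of 7 endothelial markers higher, 5 of 8 myofiber markers lower, and of 6 smooth muscle and pericyte markers 2 higher and 1 lower. Of all genes, 29.7% were called higher and 6.02% lower in this comparison. With median-ratio scaling and with quantile normalization 0 endothelial and smooth muscle markers were higher and 1 of each lower, median-ratio scaling left 0 tenocyte and 3 B cell markers, and scaling without mitochondrial genes left 1 B cell marker. Without LLC replicate 1, 0 B cell, macrophage and tenocyte markers passed, while 3 of 5 T cell and 4 of 5 neutrophil markers were still higher and 4 of 8 myofiber markers lower. The 2 fibroblast, 1 endothelial and 2 smooth muscle markers stayed higher in that fit. Without LLC replicate 3, 0 of any of these markers passed. None of the 4 satellite cell, 6 mesothelium, 5 Schwann cell, 5 adipocyte and 4 hepatocyte markers tested passed (limma). The median difference was -0.22 for the myofiber markers, 0.27 for the fibroblast markers and 2.74 for the B cell markers, beside 0.013 for the Hox genes. Satellite cell markers, which include Pax7 and Myf5 of the muscle stem cells, summed to 15.4 TPM in Control and 13.7 TPM in LLC.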

How the data were processed

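RNA-seq of the diaphragm of 17 mice was analyzed, and groups were taken from the sample titles. The authors used CLC Genomics Workbench to trim reads, align them to GRCm38 (mm10) and count genes, and deposited TPM. The strand setting and the annotation release are not given in the sources used here. The labels name a stranded library kit and the paper an unstranded one, so Hox genes that overlap antisense transcripts are uncertain. Each column sums to 1000000 and 0 sample columns were left unused. Mitochondrially encoded transcripts held 41.3% to 50.4% of TPM.

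The members and gene lists (TALE cofactors, Polycomb and Trithorax, retinoic acid and other upstream regulators, cluster neighbors, positional factors, cell markers) were chosen with earlier results of these data known. Symbols were matched to GENCODE vM21 (45134 symbols, 94.7%), whose coordinates are given, and exonic lengths were used to recover reads, an estimate that entered no test. Between replicates, r was 0.890 to 0.994, and 0 columns were identical. Nothing says that tissue of mice was pooled, and no batch is given.

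The 13305 genes (19 Hox genes) that reached 1 TPM in 3 or more mice were tested as log2(TPM + 1) with limma 3.58.1 in R 4.3.3. The model held 4 groups (13 residual degrees of freedom) with an expression trend, and 6 contrasts were tested two-sided, with Benjamini-Hochberg adjustment across all genes and a threshold of 0.05. The tumor contrast weighted groups by size. limma replaced the Kruskal-Wallis and Dunn tests of the study because groups hold 3 to 5 mice, and the latter serves as an alternative. On data simulated for LLC against Control over 13305 genes, the fit called 20%, 56%, 90% and 98% of 50 genes each changed by 0.25, 0.5, 1 and 2 (log2), with 6 of 13105 unchanged genes called. These few changed genes were drawn at random over all genes tested, whereas 35.8% of all genes were called in the real comparison. The adjustment was therefore stricter in the simulation, and these shares do not measure how many changed Hox genes would be found.

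Values per mouse are given for the 10 Hox genes of highest mean, every Hox gene past the threshold and the one of lowest p in each contrast where none passed. Hoxb7, Hoxc9, Hoxc10 and other Hox genes named beyond these were chosen after their values were seen. Results of 1 Hox gene on its own, and of a transcript that overlaps it, are not reported here. From each list of regulators, up to 4 genes of lowest p in LLC against Control are named. Alternatives were other pseudocounts and filters, scaling without mitochondrial genes, by median ratios or by quantiles, fitting only the groups compared, no expression trend, a replicate block, Dunn's test and leaving out each mouse.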

Additional observations from a re-analysis of the deposited data

Results flagged for a closer look

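In 4 of the 60 combinations of a Hox gene and a group of 4 or 5 mice that were examined, 1 mouse lay far from the others of its group by Dixon's criterion, where chance gives about 1 in 20. Hoxa3 in Control + rFibcd1 replicate 3 was at 1.07 TPM, below the other 4 mice. Hoxc4 in Control replicate 2 was at 8.31 TPM, above the other 4. Hoxc8 was at 1.96 TPM in Control replicate 1 and at 1.09 TPM in Control + rFibcd1 replicate 1, in each case above the other 4 mice of the group.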

How the results depend on the processing

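In tumor-bearing against tumor-free mice, the 2 Hox genes called became 1 with median-ratio scaling (Hoxc5, lower), 4 of 31 tested without a filter on low values (Hoxb4, Hoxb2, Hoxc10 and Hoxc9, against 27.3% of all genes), 3 of 20 when scaled without mitochondrial genes (Hoxb4, Hoxb2 and Hoxc5, against 35.1%) and 2 to 4 when each of the 17 mice was left out in turn, with 4 without Control replicate 1 or without Control + rFibcd1 replicate 1. Without Control + rFibcd1 replicate 1, where 4 Hox genes were called, 6613 of all genes were called as well. Quantile normalization kept the count of Hox genes at 2 but for other genes, Hoxa7 and Hoxc5, against 38.7% of all genes. Hoxb4 and Hoxb2 passed in all 17 fits without a mouse (adjusted p 0.00231 to 0.0138 and 0.00382 to 0.0343), and stayed above 0 in all 8 other alternatives, from 0.0087 to 0.27 and from 0.021 to 0.35 (log2), with adjusted p of 0.00559 to 0.925 and 0.0113 to 0.748. In LLC against Control the count of 0 became 1 with a filter and pseudocount of 0.1 TPM (Hoxc9), 2 with median-ratio scaling, 2 of 31 without a filter (Hoxc10 and Hoxc9, against 21.4% of all genes) and 6 with quantile normalization (against 35.2%), where Hoxb2 turned to -0.13, and was 0 in every fit without a mouse. In LLC + rFibcd1 against Control it became 1 (Hoxb2) with median-ratio scaling and 1 with quantile normalization, and 0 to 1 without a mouse (1 without Control + rFibcd1 replicate 1 or replicate 3, or Control replicate 2). It stayed 0 under all alternatives in both rFibcd1 comparisons within a tumor state and in the interaction. The causes were not tested. Of all genes, between 3782 and 6398 were called in the tumor comparison (4140 to 6613 without a mouse) and between 0 (Dunn's test) and 5231 in LLC against Control, with 24 to 5244 without a mouse. At a detection level of 2 TPM, 7 Hox genes instead of 12 were detected in all mice, and 12 to 14 at 1 TPM without a mouse. Fits of only the groups compared and Dunn's test give no value for the tumor contrast and the interaction.

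Over all genes, same-numbered mice of different groups did not as a rule deviate together (22 pairs, median r -0.061, r from -0.459 to 0.485, 4 over 0.1). For mice of different numbers the median r was -0.0255. Replicate numbers were therefore taken as names, and shared handling was not tested. With a replicate block, 1 Hox gene (Hoxb4) was called in the tumor comparison, and the genes called over all were 3782 there and 5 in LLC against Control.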
